A study of Mus musculus with 8 samples.

Results

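The keratins of luminal and basal mammary epithelium were examined in tumors formed by disseminated tumor cells (DTC) of BALB-neuT mice. The set held 9 genes, chosen by name: *Krt7*, *Krt8*, *Krt18*, *Krt19* and *Krt23* as luminal or simple epithelial keratins, and *Krt5*, *Krt14*, *Krt15* and *Krt17* as basal keratins. On the arrays, 9 of 41345 probe sets listed exactly 1 of these symbols, and they covered 8 of the 9 genes, since *Krt18* had 2 probe sets. In all, 22180 genes were named alone by a probe set. The only probe set that listed *Krt5* also listed *Krt6a*, so no level of *Krt5* is given.

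Transcripts were measured in 4 DTC tumors and 4 mammary tumors on Affymetrix mouse arrays, 1 for each tumor. BALB-neuT mice carry an activated rat *Her2/neu* oncogene driven by the mammary tumor virus promoter. Tumors of both groups grew under the skin of NSG mice, which lack mature T, B and NK cells, from cells injected in Matrigel with bFGF, an angiogenic factor. RNA was extracted from shavings of frozen tumor masses, so host stroma, vessels and skin can contribute to it. The DTC tumors grew from injected BALB-neuT bone marrow cells. The sample labels call these cells early, whereas the study obtained tumors from late donors. The mammary tumors came from TUBO cells, a BALB-neuT tumor line, by the labels, and from primary mammary tumor cells by the methods. If the labels hold, the 4 mammary tumors came from a single line, and its traits cannot be told apart from the tumor type. No source used here says if different mice or marrow pools gave rise to them, so each p-value refers to the spread among these 8 tumors, which may be technical in part.

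Keratins are the intermediate filaments of epithelial cells. Each filament is built from pairs of a type I and a type II chain, and a chain without its partner is degraded. In the mammary gland the luminal cells that line the ducts hold *Krt8* with *Krt18* and *Krt19*, and the basal or myoepithelial cells around them hold *Krt5* with *Krt14*. The products of *Krt8* and *Krt18* were the cytokeratins by which the study stained and counted DTC in bone marrow, beside HER2. Of the genes measured here, *Krt7* and *Krt8* encode type II chains, and *Krt14*, *Krt15*, *Krt17*, *Krt18*, *Krt19* and *Krt23* encode type I chains.

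The luminal keratins *Krt8*, *Krt18*, *Krt7* and *Krt23* were read well above the array background in every tumor. The luminal keratin *Krt19* was read below it in every tumor, as were the basal keratins *Krt14* and *Krt15*. The basal keratin *Krt17* exceeded it in DTC tumor 4 only. No keratin passed the test between DTC and mammary tumors. The 2 probe sets of *Krt18* came closest, with means 1.23-fold and 1.87-fold higher in DTC tumors. *Krt8* and *Krt18* moved together from tumor to tumor in both groups. All values below are log2 signals as the authors normalized them. Probe sets differ in how brightly they report a transcript, so the levels of different keratins were not set against each other. The array background was taken as the 95th percentile of the mean signals of 1091 olfactory receptor probe sets, genes of the olfactory epithelium, and lay at 5.06. A level near it is only a bound, and a difference between such levels was not read as one between transcripts.

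**Figure D1:**
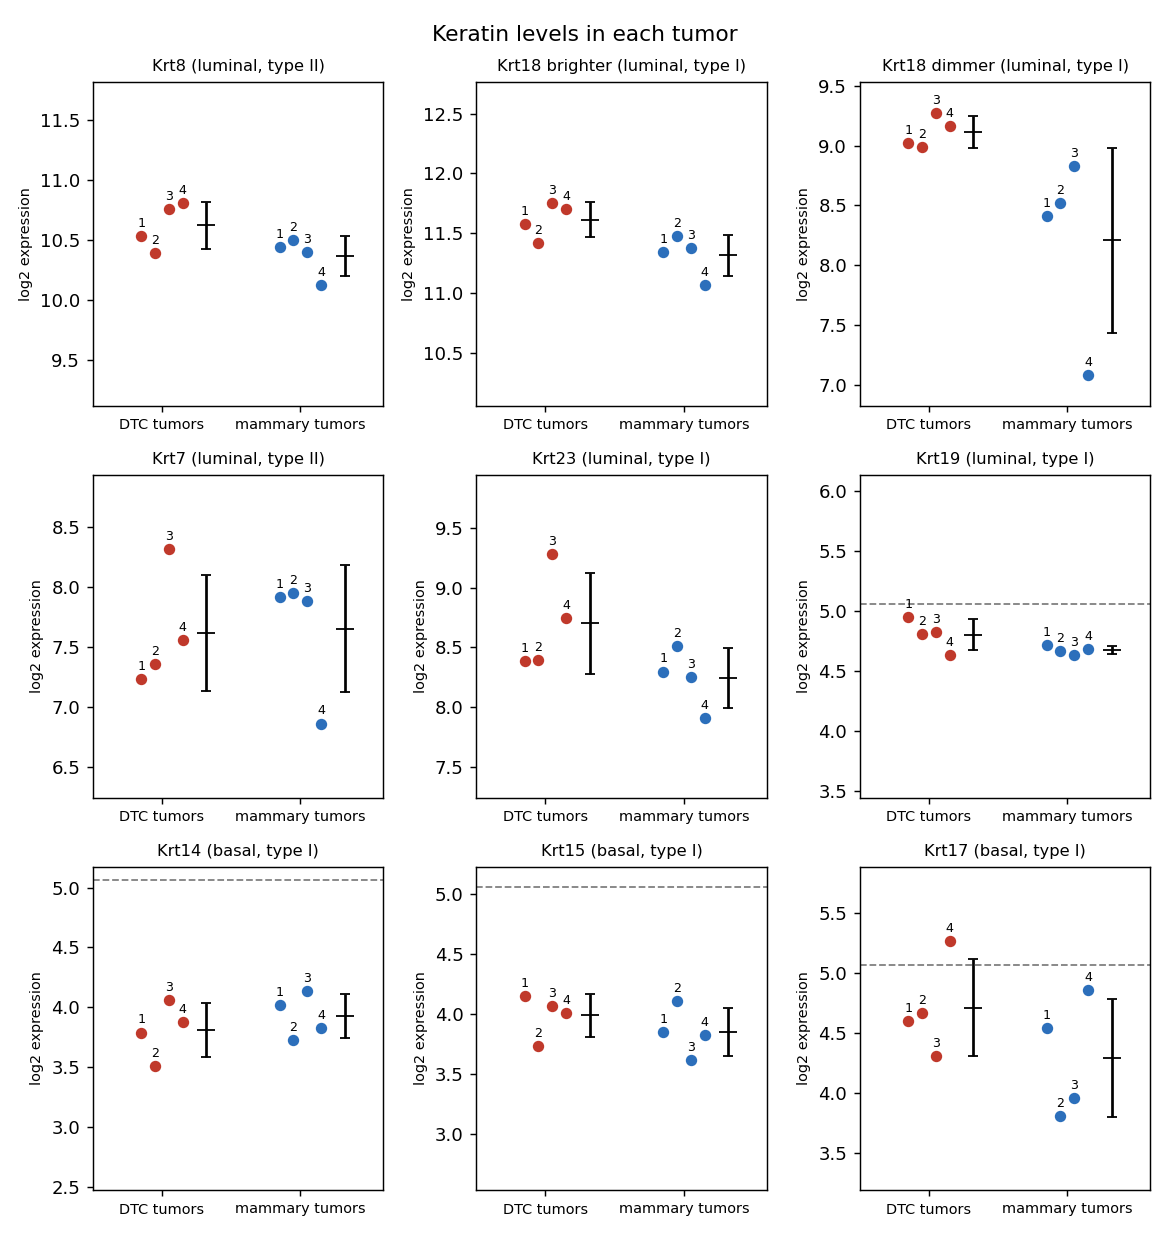
Log2 expression (y axis) of each keratin probe set in the 4 DTC tumors (red, left) and the 4 mammary tumors (blue, right). Numbers beside points name the tumor, black bars give the mean ± SD, each panel has its own y range, and the dashed line is the array background of 5.06. The dimmer *Krt18* probe set is the only one whose groups do not overlap, and *Krt14*, *Krt15* and *Krt19* lie below the dashed line in all tumors.

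*Krt8*, the type II chain of simple epithelia, was the first of the luminal pair. It had log2 levels of 10.53, 10.39, 10.75 and 10.81 in DTC tumors 1 to 4, and of 10.44, 10.50, 10.40 and 10.12 in mammary tumors 1 to 4. DTC tumors 1, 3 and 4 lay above all mammary tumors, DTC tumor 1 by a small margin, DTC tumor 2 lay within the mammary range, and mammary tumor 4 lay below all others. The means were 10.62 ± 0.20 in DTC tumors and 10.36 ± 0.17 in mammary tumors (SD, n = 4 each). The difference of 0.26 ± 0.13 (SE), with a 95% interval of -0.04 to 0.55, did not pass the test (adjusted p = 0.508 from limma over all probe sets). As a fold, this interval spans 0.975 to 1.47. In bulk tumor RNA, fewer cells of a type and less RNA per cell cannot be told apart.

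*Krt18* encodes the type I partner of *Krt8*, and its 2 probe sets are given apart. The brighter one had levels of 11.58, 11.42, 11.75 and 11.70 in DTC tumors, and of 11.35, 11.48, 11.37 and 11.07 in mammary tumors. Only DTC tumor 2 lay within the range of the mammary tumors, and mammary tumor 4 was again the lowest of all. The means were 11.61 ± 0.15 in DTC tumors and 11.32 ± 0.17 in mammary tumors (SD, n = 4 each), a difference of 0.30 ± 0.12 (SE) with a 95% interval of 0.02 to 0.57. After adjustment over all probe sets it did not pass (adjusted p = 0.385 from limma). A two-sided exact permutation test of this probe set alone gave p = 0.0571, where the smallest p that 4 against 4 tumors allow is 0.029.

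The dimmer *Krt18* probe set separated the groups. It read 9.02, 8.99, 9.27 and 9.16 in DTC tumors, against 8.41, 8.52, 8.83 and 7.08 in mammary tumors. Every DTC tumor lay above every mammary tumor. The 4 DTC tumors lay close together, at 9.11 ± 0.13 (SD), whereas the mammary tumors were spread widely, at 8.21 ± 0.77 (SD), mainly through mammary tumor 4. The difference was 0.90 ± 0.32 (SE), with a 95% interval of 0.19 to 1.62, which is 1.87-fold (1.14 to 3.07), and it did not pass the adjusted test (adjusted p = 0.261 from limma, exact permutation p = 0.029 unadjusted). Without mammary tumor 4 the difference was 0.53, with an adjusted p of 0.316 from limma. The sources used here do not say which part of the transcript each *Krt18* probe set reads. That both read *Krt18* RNA rests on their annotated symbol and was not checked.

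The 2 *Krt18* probe sets kept a nearly fixed distance in DTC tumors but not in mammary tumors. Brighter minus dimmer was 2.55, 2.44, 2.48 and 2.54 in DTC tumors, against 2.93, 2.96, 2.54 and 3.99 in mammary tumors. Mammary tumor 4 therefore stood low in both probe sets and much lower in the dimmer one. *Krt18* (brighter) minus *Krt8*, by contrast, stayed within a narrow range in all tumors, from 0.89 to 1.04 in DTC tumors and from 0.91 to 0.98 in mammary tumors.

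*Krt8* and *Krt18* are neighbours on mouse chromosome 15, with only 2 listed long noncoding RNA genes, *Gm36026* and *Gm41404*, between them in the RefSeq table (GRCm38.p6). Since they moved together, the start regions of both are shown, each from 250 bases before to 50 after the start, 5′ to 3′ on the strand of the gene, from RefSeq on GRCm38.p6. The *Krt8* region is chr15:102004293-102004592 on the minus strand, and the *Krt18* region is chr15:102027966-102028265 on the plus strand. Capitals mark matches to 2 of the 4 letter patterns searched on both strands, TATAA, the core of a TATA box, and GCCNNNGGC, a pattern bound by AP-2 factors.
Krt8: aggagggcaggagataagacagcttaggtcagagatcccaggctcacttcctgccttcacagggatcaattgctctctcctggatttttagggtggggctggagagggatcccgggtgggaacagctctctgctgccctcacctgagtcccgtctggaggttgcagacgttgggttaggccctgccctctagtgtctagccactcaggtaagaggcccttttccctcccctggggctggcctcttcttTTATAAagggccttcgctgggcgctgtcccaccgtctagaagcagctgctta
Krt18: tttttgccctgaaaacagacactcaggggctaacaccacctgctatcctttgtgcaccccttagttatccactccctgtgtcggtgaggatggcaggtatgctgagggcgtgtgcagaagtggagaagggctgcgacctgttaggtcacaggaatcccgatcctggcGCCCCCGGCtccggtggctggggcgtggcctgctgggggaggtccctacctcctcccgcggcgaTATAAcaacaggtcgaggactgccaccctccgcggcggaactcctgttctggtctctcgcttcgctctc
In *Krt8* the capitals are TATAA and, overlapping it, the same pattern on the other strand, and they lie at the annotated start itself, with first bases at -1 and -2. In *Krt18* TATAA lies at -19 and GCCNNNGGC at -83, on the strand of the gene. Of 32851 listed start regions of this length, 24.9% hold TATAA and 16.6% hold GCCNNNGGC. The pattern GGGCGG of a GC box, held by 35.7% of the regions, and TGACTCA of AP-1, held by 5.20%, were in neither region. Start regions were listed for 6 of the 9 genes. *Krt7* held GGGCGG 4 times and GCCNNNGGC 2 times, and *Krt5*, *Krt14* and *Krt23* held none of the 4 patterns. A match of letters is a description, not a bound site.

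Whether partner chains varied together was then asked over the 8 tumors. Keratins that are not partners were not correlated, so whether a relation is particular to a pair was not tested. *Krt8* and the brighter *Krt18* probe set had a Pearson r of 0.968 (exact permutation p = 0.000570, adjusted p = 0.00171 over the 3 pairs run) and a Spearman rho of 0.881 (exact permutation p = 0.00724, adjusted p = 0.0217). DTC tumors 3 and 4 were the highest in both genes and mammary tumor 4 the lowest in both. The same tumors were the highest and the lowest for *Krt23*, a type I chain outside the pairs run. With each tumor set against its group mean, and permuted within groups, r was 0.956 (exact permutation p = 0.00694), so the relation did not rest on the group means. Without DTC tumor 4 and mammary tumor 4, which lay farthest from the median of *Krt8*, r was 0.946 (exact permutation p = 0.0139) and rho 0.771 (exact permutation p = 0.103). The dimmer *Krt18* probe set, added after the values were seen, gave r = 0.824 (exact permutation p = 0.00598) and rho = 0.762 (exact permutation p = 0.0368). The points share the array and its normalization, and r over *Krt8* and the brighter probe set was 0.965 after median centring and 0.970 after cyclic loess.

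**Figure D2:**
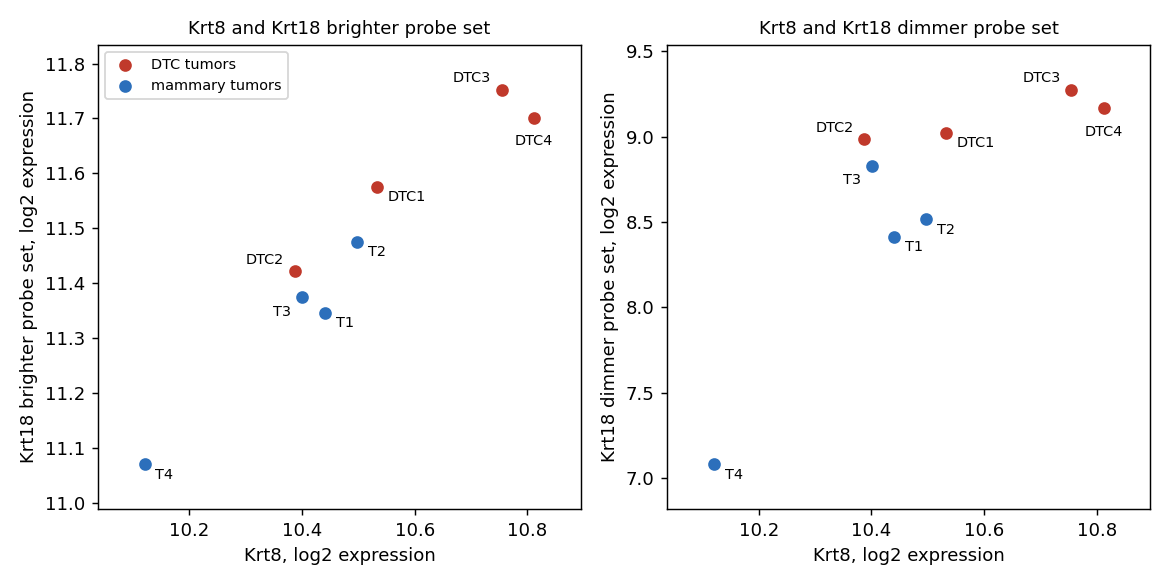
Log2 expression of *Krt8* (x axis) against the brighter (left panel) and the dimmer (right panel) *Krt18* probe set (y axes), 1 point per tumor, DTC tumors (DTC1 to DTC4) in red and mammary tumors (T1 to T4) in blue. The points of the left panel lie along a line (r = 0.968), while in the right panel mammary tumor 4 lies far below the rest at 7.08 (r = 0.824).

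*Krt19*, another type I luminal keratin and a partner of *Krt8* and *Krt7*, was not above background in any tumor. It read 4.95, 4.81, 4.83 and 4.63 in DTC tumors, against 4.72, 4.67, 4.63 and 4.68 in mammary tumors. The groups overlapped, and the limits of the 95% interval of the difference, -0.09 and 0.34, describe probe signal near background rather than the transcript. Near background, *Krt19* gave correlations of 0.134 with *Krt8* (rho 0, exact permutation p of r = 0.745) and of -0.117 with *Krt7* (rho -0.07, exact permutation p of r = 0.785). Both signs turned in some settings, and neither value was read as a relation. The 3 pairs with *Krt5* were not run.

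*Krt7*, the type II chain of ductal epithelia, varied between tumors without following the groups. Its levels were 7.23, 7.36, 8.32 and 7.55 in DTC tumors, against 7.92, 7.95, 7.88 and 6.86 in mammary tumors. DTC tumor 3 was the highest and mammary tumor 4 the lowest of all, while the other 3 mammary tumors lay together above the other 3 DTC tumors. The means, 7.62 ± 0.49 in DTC tumors and 7.65 ± 0.53 in mammary tumors (SD, n = 4 each), differed by -0.04 ± 0.30 (SE), with a 95% interval of -0.70 to 0.63 (adjusted p = 0.974 from limma). The sign of this difference turned when single tumors were left out, with values between -0.30 and 0.09. The interval does not leave out a change, in one direction or the other, of the size seen for the brighter *Krt18* probe set.

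*Krt23*, a type I keratin of several glandular epithelia, read 8.38, 8.39, 9.28 and 8.75 in DTC tumors, against 8.30, 8.51, 8.25 and 7.91 in mammary tumors. As for *Krt7*, DTC tumor 3 was the highest and mammary tumor 4 the lowest, and DTC tumors 1 and 2 lay within the mammary range. The means were 8.70 ± 0.42 in DTC tumors and 8.24 ± 0.25 in mammary tumors (SD, n = 4 each). The difference of 0.46 ± 0.23 (SE), with a 95% interval of -0.05 to 0.96, did not pass the test (adjusted p = 0.388 from limma). Without DTC tumor 3 it was 0.26.

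**Figure D3:**
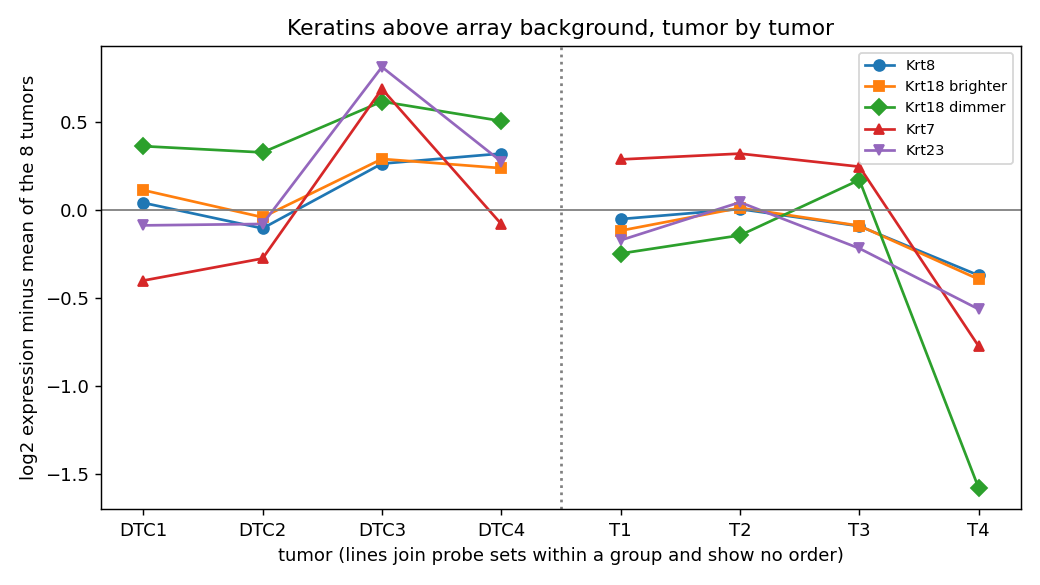
Log2 expression of the 5 keratin probe sets above background minus their mean over the 8 tumors (y axis) in DTC tumors (DTC1 to DTC4, left) and mammary tumors (T1 to T4, right). DTC3 is the highest tumor for 4 of the 5 probe sets and T4 the lowest for all 5, while *Krt7* is above its mean in T1, T2 and T3 and below it in 3 of the 4 DTC tumors.

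Among the 9 probe sets, 5 were lowest in mammary tumor 4 and 4 were highest in DTC tumor 3. The 5 were the ones above background, each luminal. By correlation over all probe sets, a description with no replicates behind it, no tumor stood apart: r lay between 0.977 and 0.985 for pairs of DTC tumors, 0.979 and 0.988 for pairs of mammary tumors, and 0.975 and 0.984 for mixed pairs. Mammary tumor 4 was not low in the mean of 14 luminal mammary genes, which was 8.90 there, against 8.86, 8.81 and 8.90 in mammary tumors 1 to 3. Single genes of this list went both ways. *Cldn4* (8.56) and *Cldn7* (7.98) were lowest of the 8 tumors in mammary tumor 4. *Gata3* (9.17), *Epcam* (11.72) and *Kit* (10.87) were highest there. The mean of mammary tumor 4 over 8 fibroblast genes was 8.78, the highest of the 8 tumors. Its mean over 7 macrophage genes was 8.26, the lowest. The part of host cells in the keratin levels of this tumor was not tested.

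The basal keratins were at background. *Krt14*, the type I chain of basal and myoepithelial cells, read 3.79, 3.51, 4.06 and 3.88 in DTC tumors, against 4.02, 3.73, 4.14 and 3.83 in mammary tumors. *Krt15*, a keratin of basal and progenitor cells, read 4.15, 3.74, 4.06 and 4.01 in DTC tumors, against 3.85, 4.11, 3.61 and 3.82 in mammary tumors. All of these values lay below 5.06, and the groups overlapped for both genes. *Krt17*, which basal cells and injured epithelium express, read 4.60, 4.67, 4.30 and 5.27 in DTC tumors, against 4.54, 3.81, 3.95 and 4.86 in mammary tumors. Only DTC tumor 4 exceeded the background level, by a small margin, and mammary tumor 4 was the next highest. The differences were -0.12 ± 0.18 for *Krt14* (adjusted p = 0.837), 0.14 ± 0.17 for *Krt15* (adjusted p = 0.789) and 0.42 ± 0.28 for *Krt17* (adjusted p = 0.536; SE, limma). At this signal a basal keratin present in few cells was not detectable, which is not the same as absent.

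Counted together, 0 of the 9 keratin probe sets were called, where a call needed an adjusted p no higher than 0.05 together with a log2 difference of 1 or more in size. The background for this count was low, since limma called 25 of 18877 probe sets with an interquartile range above 0.25 (0.132%), and 19 of all 41345 (0.0460%). Of the 9 keratin probe sets, 6 passed that range filter, and *Krt8*, the brighter *Krt18* probe set and *Krt19* did not, so their adjusted p-values come from the fit over all probe sets. With unadjusted p-values up to 0.05, 2 of 9 were higher in DTC tumors, both for *Krt18*, against 5.30% of all probe sets, and 0 were lower, against 6.19% of all probe sets. The groups did not overlap, with DTC tumors higher, for 1 of 9, against 3.21% of all probe sets. In all, 7 keratin probe sets had the higher mean in DTC tumors and 2 in mammary tumors, with a median difference of 0.26, against 0.02 over all probe sets. The 2 probe sets of *Krt18* are annotated to 1 gene.

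**Figure D4:**
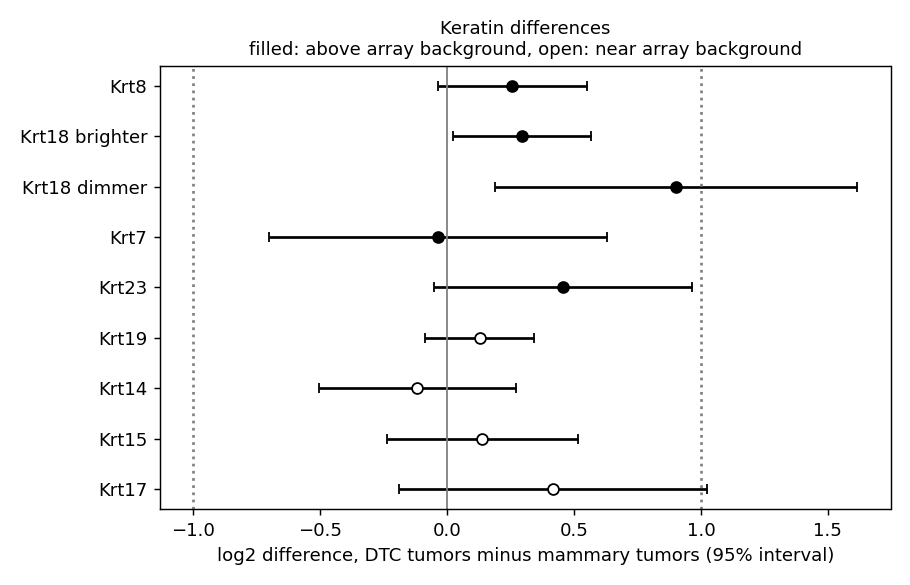
Log2 difference between DTC and mammary tumors (x axis, DTC minus mammary) for each keratin probe set, with 95% intervals from limma. Filled points are above the array background, open points near it, and dotted lines mark the fold threshold of 1. The intervals of both *Krt18* probe sets lie above 0, and those of the other 7 probe sets cross it.

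Most other genes of luminal mammary cells had the lower mean in DTC tumors, some by very little, whereas *Krt8* and *Krt18* had the higher mean. Of 14 measured luminal genes, 4 had the higher mean in DTC tumors and 10 in mammary tumors, 0 were called, and the median difference was -0.05. The 10 included *Cldn7* and *Cldn4*, at -0.006 and -0.008, whose signs were not read. With unadjusted p-values up to 0.05 from limma, 3 were lower in DTC tumors, against 6.19% of all probe sets, and 1 was higher, against 5.30%. The shares are over all 41345 probe sets, 16004 of them with no listed symbol, whereas a list takes the brightest probe set of each gene. By unadjusted p over all probe sets the lowest were *Gata3*, *Epcam* and *Pgr*. *Gata3*, the luminal transcription factor, averaged 7.93 ± 0.24 in DTC tumors and 8.72 ± 0.30 in mammary tumors (SD, n = 4 each, adjusted p = 0.136 from limma). *Epcam*, an epithelial adhesion molecule, averaged 11.25 ± 0.05 in DTC tumors and 11.63 ± 0.11 in mammary tumors (adjusted p = 0.288 from limma). *Pgr*, the progesterone receptor and the 1 gene counted as higher, was near background in both groups, so that its difference was not read. By adjusted p above the range filter *Cldn3*, with a difference of -0.39, came before *Pgr* (adjusted p = 0.308 from limma). *Cdh1*, the adhesion molecule E-cadherin, averaged 10.56 in DTC tumors and 10.79 in mammary tumors. *Epcam* and *Cdh1* were thus read well above background in both groups, as were *Krt8* and *Krt18*.

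The genes that go with basal keratins were mixed. Of 15 basal and myoepithelial genes, 10 had the higher mean in DTC tumors and 5 in mammary tumors, 0 were called, and the median difference was 0.12. With unadjusted p-values up to 0.05 from limma, 4 were higher in DTC tumors, against 5.30% of all probe sets, and 2 were lower, against 6.19%. *Trp63*, the transcription factor that defines basal cells and drives *Krt5* and *Krt14*, was near background, at 4.89 in DTC tumors and 4.85 in mammary tumors, and so were *Cnn1* and *Lgr5*. *Acta2*, smooth muscle actin, which myoepithelial cells share with fibroblasts and vessel walls, had the lowest p in the list, with 9.34 ± 0.33 in DTC tumors and 8.33 ± 0.52 in mammary tumors (SD, n = 4 each, adjusted p = 0.148 from limma). By unadjusted p over all probe sets, the next were *Sox10*, with a difference of -0.37, and *Tagln*, with a difference of 0.62. *Tagln* is an actin-binding protein of contractile cells. By adjusted p above the range filter, *Cdh3* came next after *Acta2*. It averaged 8.28 ± 0.60 in DTC tumors and 7.35 ± 0.30 in mammary tumors (SD, n = 4 each, adjusted p = 0.203 from limma). Fibroblast genes, which share some of these transcripts, had the higher mean in mammary tumors for 6 of 8, with a median difference of -0.09 (0 called). *Lum* and *Dcn*, matrix proteoglycans, had the largest differences, at -1.23 and -0.85. The 2 genes with the higher mean in DTC tumors were *Thy1* at 0.17 and *Col1a1* at 0.02.

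Most keratins of other epithelia were near background. Of 45 further keratin genes, 31 were near background in both groups, 0 were called, and the median difference was 0.02, with 30 higher and 15 lower in mean in DTC tumors. The lowest p-values were those of the hair keratins *Krt31* and *Krt84* and of *Krt26*, all 3 near background in both groups, so that their differences were not read. Of 12 genes of squamous differentiation, among them *Krt4*, *Krt6a*, *Krt6b*, *Krt13* and *Krt16*, 10 were near background. Since tumors grew under the skin, 19 genes of epidermis and hair were also read: 16 were near background, *Krt1*, *Krt2* and *Lor* included, and *Krt10*, a keratin of differentiating epidermis, lay at 6.19 in DTC tumors and 5.96 in mammary tumors. The mean over the 19 genes was 4.38 to 4.56 in DTC tumors and 4.33 to 4.48 in mammary tumors.

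A list of keratin anchors and linkers, chosen by name, was read next, and no gene of it passed the test. It also held *Krtcap2*, *Krtcap3* and *Pof1b*, so its counts are not only of structures that hold keratin filaments. Of 21 measured genes of this list, 7 had the higher mean in DTC tumors and 14 in mammary tumors, the median difference was -0.21, and 0 were called. With unadjusted p-values up to 0.05, 6 were lower in DTC tumors, *Pof1b* and *Krtcap3* among them, against 6.19% of all probe sets, and 0 were higher, against 5.30%. These shares include probe sets with no listed symbol, unlike the list, so the comparison is not like for like. The lowest p-values were those of *Dsc2* and *Dsg2*, desmosomal cadherins, and *Pof1b*, an actin-binding protein of epithelial junctions. *Dsc2* read 8.45, 8.79, 8.62 and 8.62 in DTC tumors, against 9.26, 9.10, 9.45 and 9.27 in mammary tumors, with no overlap (adjusted p = 0.128 from limma). *Dsg2* averaged 9.82 ± 0.11 in DTC tumors and 10.33 ± 0.13 in mammary tumors (SD, n = 4 each, adjusted p = 0.186 from limma). *Dsp*, the desmoplakin that binds keratin filaments to desmosomes, read 9.54, 8.85, 9.32 and 9.23 in DTC tumors, against 9.12, 9.10, 8.58 and 7.60 in mammary tumors. Mammary tumor 4 was thus the lowest tumor for *Dsp* as for the luminal keratins above background, and *Dsp* was named after its values were seen.

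**Figure D5:**
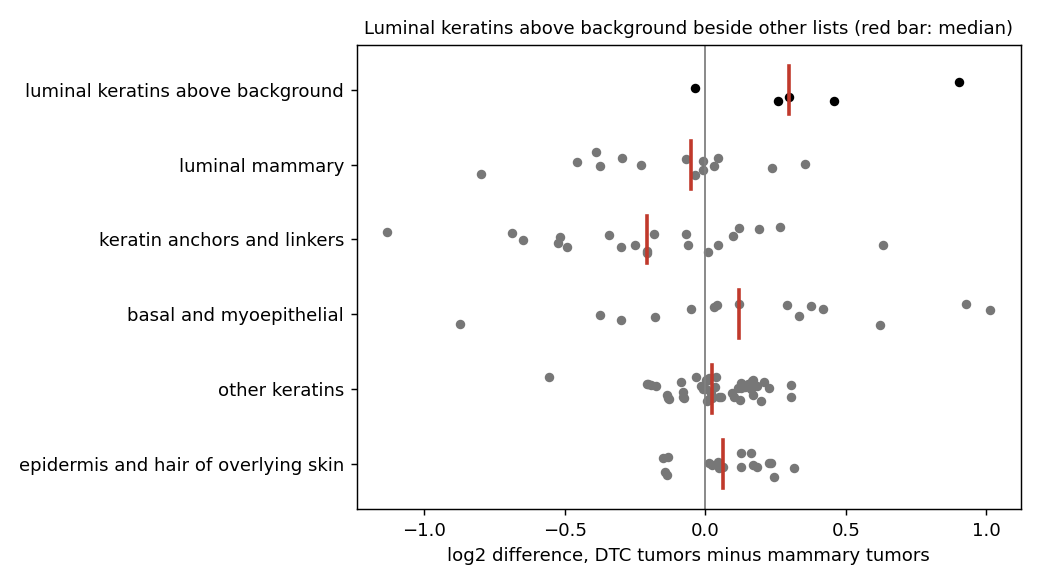
Log2 difference between DTC and mammary tumors (x axis, DTC minus mammary) for the 5 luminal keratin probe sets above background (black) and for single genes of 5 other lists (grey), with red bars at the medians; the vertical position within a row carries no value. The median of the list of anchors and linkers lies at -0.21 and that of the luminal genes at -0.05.

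Among 15 measured genes of other intermediate filaments, 1 was called. *Nes*, the nestin of progenitor and vessel cells, fell to 7.27, 7.30, 7.31 and 7.20 in DTC tumors, against 8.45, 8.43, 8.68 and 8.63 in mammary tumors, a difference of -1.28 ± 0.09 (SE, adjusted p = 0.0125 from limma). All mammary tumors lay above all DTC tumors. *Vim*, the vimentin of mesenchymal cells, averaged 11.29 ± 0.24 in DTC tumors and 10.87 ± 0.24 in mammary tumors, and *Lmnb1*, a nuclear lamin, 8.43 ± 0.14 in DTC tumors and 7.92 ± 0.13 in mammary tumors (SD, n = 4 each), and neither passed the test.

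Of 18 transcription factors known at keratin genes, 10 had the higher mean in DTC tumors and 8 in mammary tumors, and 1 was called. *Tfap2b*, a member of the AP-2 family, read 3.81, 3.89, 3.29 and 4.43 in DTC tumors, all below background, against 7.89, 8.11, 7.75 and 7.78 in mammary tumors (adjusted p = 5.5e-05 from limma), and the value in DTC tumors is only a bound. The related *Tfap2c* and *Tfap2a*, AP-2 factors of epithelia, were read in both groups, with *Tfap2c* at 10.14 in DTC tumors and 10.03 in mammary tumors and *Tfap2a* at 8.26 in DTC tumors and 8.45 in mammary tumors. By unadjusted p over all probe sets, the lowest after *Tfap2b* were *Gata3*, given above, and *Ovol1*, an epithelial repressor. *Ovol1* had a difference of 0.45 (adjusted p = 0.280 from limma above the range filter). By that adjusted p *Grhl3*, with a difference of 0.57, came before *Ovol1* (adjusted p = 0.272 from limma).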

How the data were processed

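Total RNA from 8 tumors was hybridized to Affymetrix MoGene arrays. In oneChannelGUI the authors applied sketch-quantile normalization, and the deposited table holds log2 values of 41345 probe sets. How probes were summarized, and with which versions, is not given in the sources used here. Columns were assigned to tumors through their titles, with 0 left over. Gene symbols came from the platform annotation, with 1 symbol for 23521 probe sets, several for 1820 and none listed for 16004, and probe sets with several symbols were not named.

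Groups were compared with R 4.3.3 and limma 3.58.1 (eBayes after lmFit, two-sided, Benjamini-Hochberg over all probe sets tested). As in the methods of the study, an interquartile range above 0.25 was required, which left 18877 probe sets, and a call needed an adjusted p no higher than 0.05 and a log2 difference of 1 or more in size. Values of probe sets at or below that range came from the same fit over all 41345. Quantile normalization forces arrays to a common distribution, so a shift shared by most genes is not visible. The step was tested on simulated data. The alternatives were other range filters, dim probe sets left out, 1 probe set per gene, 3 renormalizations, a trended robust variance, array weights, Bonferroni correction, adjusted p alone, the replicate number as a block and each tumor left out. All keratin probe sets are named. The 3 members of lowest unadjusted p over all probe sets are named in each list, except those of fibroblasts, macrophages, squamous differentiation, and epidermis and hair. For keratins whose brightest probe set lay above the range filter, the genes most like them are given. These are 3 each for *Krt7* and *Krt23* and 1 each for *Krt14*, *Krt15* and *Krt17*. Further list genes in the text were named after their values were seen. The members and lists were chosen with earlier results of these data known. The number of arrays limits the precision.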

Additional observations from a re-analysis of the deposited data

Results flagged for a closer look

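*Krt7* in mammary tumor 4 stood apart from the other mammary tumors. Its log2 level there was 6.86 and the nearest mammary tumor was at 7.88, a gap that made up 0.932 of the range of the group, above Dixon's critical value for 4 samples. This was the 1 group in which a tumor stood apart among the 18 groups of 4 tumors checked over the keratin probe sets, and chance alone gives such a gap in about 1 in 20 groups. Mammary tumor 4 was also the lowest tumor for *Krt8*, *Krt23* and both *Krt18* probe sets.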

How the results depend on the processing

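No keratin probe set was called under any of the 20 settings run with limma, while 2 of 9 had an unadjusted p up to 0.05. Over 159 alternative values of single keratin probe sets, 0 passed both thresholds, and the 5 with the other sign were all of *Krt7*, whose difference ran between -0.301 and 0.0909 without single tumors. The ranges over alternatives were 0.18 to 0.34 for *Krt8*, 0.21 to 0.36 for the brighter and 0.53 to 1.11 for the dimmer *Krt18* probe set, and 0.26 to 0.56 for *Krt23*. The number of all probe sets called, 25 in the comparison reported, was 15 with a range above 0.5, 65 without dim probe sets, 86 with 1 probe set per gene, 57 with a trended robust variance, 46 with array weights, 1 with Bonferroni correction, and between 9 and 47 without single tumors. With the replicate number as a block it was 7. Deviations of same-numbered tumors correlated at 0.00740, 0.0146, 0.168 and 0.194. For tumors of different numbers the values ran from -0.182 to 0.0471, so 0.168 and 0.194 were the highest of all pairs. Whether the numbers mark pairs was not tested. They were not taken as pairs in the comparison reported, and the block changed no keratin call. Correlations with *Krt19*, which lay near background, changed sign: with *Krt8* to -0.414 in deviations from group means and between -0.0238 and 0.486 without single tumors, and with *Krt7* between -0.396 and 0.236. Between *Krt8* and *Krt18* r stayed between 0.938 and 0.977 without single tumors. The causes were not tested. Signal near background limits *Krt14*, *Krt15*, *Krt17* and *Krt19*.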

Other observations

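The genes whose levels ran most like those of *Krt7* and *Krt23* over the 8 arrays are given as a description. Among 8281 genes they were *Scube1* (r = 0.976), *Ppp2r2d* (r = 0.975) and *Azin1* (r = 0.957) for *Krt7*, and *Anxa1* (r = 0.958), *Vmn1r36* (r = 0.923) and *Piga* (r = 0.923) for *Krt23*. *Anxa1* encodes annexin A1, a phospholipid-binding protein, and *Azin1* an antizyme inhibitor. For *Krt14*, *Krt15* and *Krt17*, near background in both groups, the highest r were 0.919 with *Ddx59*, 0.955 with *Agr3* and 0.973 with *Slfn1*. Each r is among the 3 highest of 8281 over 8 points that share their arrays, and no relation was read from it.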
